A study of Mus musculus with 16 samples.

Results

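MiR-335 is a microRNA (miRNA) whose gene lies inside Mest, an imprinted protein-coding gene, and both of its mature strands, miR-335-5p and miR-335-3p, were followed in mouse embryonic fibroblasts (MEFs). The members were the rows named mmu-miR-335-5p and mmu-miR-335-3p in the array output, which are 2 of the 611 mouse miRNAs on the array. The arrays measured total RNA from primary MEFs of mixed FVB/n and C57Bl/6 strain, which were either wild type (WT) or Ercc1-/-. Ercc1-/- MEFs lack ERCC1, a subunit of a nuclease needed for DNA repair, and the deletion is constitutive, so that it was carried by every Ercc1-/- culture at each passage and oxygen level. Each genotype was grown in 3% or 20% O2 and collected at passage 3 (P3) or passage 7 (P7). The resulting 8 groups had 2 arrays each, 16 in all: WT P3 in 3% O2, WT P3 in 20% O2, Ercc1-/- P3 in 3% O2, Ercc1-/- P3 in 20% O2, and the same 4 cultures at P7. The study asked which miRNAs change as repair-deficient cells senesce, a state that 3% O2 delays.

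A miRNA gene is transcribed as a hairpin, and either arm of the hairpin can be loaded into an Argonaute protein, which the miRNA guides to messenger RNAs that pair with its seed, bases 2 to 8. Mest is expressed from the paternal allele in mesoderm, and miR-335 is processed from its intron. In mesenchymal cells miR-335 is known for repressing Runx2, a transcription factor of bone formation, and has been linked to senescence of mesenchymal stem cells. In tumour cells it is known as a suppressor of metastasis that represses Sox4 and tenascin C.

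Both mature sequences were taken from RefSeq (GRCm38.p6) to show that the strands have different seeds and so are expected to pair with different messenger RNAs. The seed, bases 2 to 8, is in capitals.
mmu-miR-335-5p: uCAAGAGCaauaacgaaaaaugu
mmu-miR-335-3p: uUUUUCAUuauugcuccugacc
MiR-335-5p is 23 bases long and lies at chr6:30741314-30741336 on the + strand, and miR-335-3p is 22 bases long and lies at chr6:30741354-30741375 on the same strand. The RefSeq gene table places Mir335 within Mest. Of the 1679 mature mouse miRNAs in the RefSeq table, 0 others shared bases 2 to 8 with miR-335-5p and 0 shared them with miR-335-3p, so neither strand belongs to a larger seed family there.

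Replicate 1 of every group was hybridized on 1 slide and replicate 2 on the other, with 8 arrays on each. The mean unscaled log2 signal of the 57 miRNAs above background on all arrays was 9.17 on slide 1 and 7.55 on slide 2. The number of mouse miRNAs above background ranged from 117 to 257 per array. Both P7 Ercc1-/- arrays of slide 2 stood apart, with a mean Pearson r across miRNAs with the other arrays of 0.470 in 20% O2 and 0.669 in 3% O2, against 0.753 to 0.867 on the other 14. Results that rest on these arrays are therefore also given without them. Of 12 fibroblast-associated miRNAs on the array, 6 were above background on every array and 1, miR-145*, on none, and all 10 epithelial miRNAs were below background throughout. Of 7 blood miRNAs 3 were above background on some arrays, of 6 muscle miRNAs 1, of 8 neural miRNAs 4 and of 3 liver and endothelial miRNAs 0. The blood list held between 0.00376% and 0.179% of the summed miRNA signal of an array, and its part in the results was not tested.

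MiR-335-5p was above background on 13 of the 16 arrays and spanned a wide range. Values are log2 signals after scaling the arrays to the same mean over the 57 miRNAs above background on all of them, with a floor of 1.50 for lower signals. In 3% O2, WT P3 MEFs had 6.05 on slide 1 and 4.89 on slide 2, and Ercc1-/- P3 MEFs had 7.77 and 6.77. In 20% O2, WT P3 MEFs had 6.54 and 4.10, the latter not above background, and Ercc1-/- P3 MEFs had 8.08 and 6.40. At P3, both Ercc1-/- arrays were thus above the WT array of the same slide at each oxygen level.

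At P7 in 3% O2, WT MEFs had 6.59 on slide 1 and 4.34 on slide 2. Ercc1-/- MEFs there had 6.02 on slide 1 and were at the floor of 1.50 on slide 2. At P7 in 20% O2, WT MEFs had 8.67 and 4.14, and Ercc1-/- MEFs had 7.20 and, again at the floor, 1.50. The highest miR-335-5p value of all was the WT P7 array in 20% O2 on slide 1, and the lowest were both P7 Ercc1-/- arrays of slide 2.

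**Figure D1:**
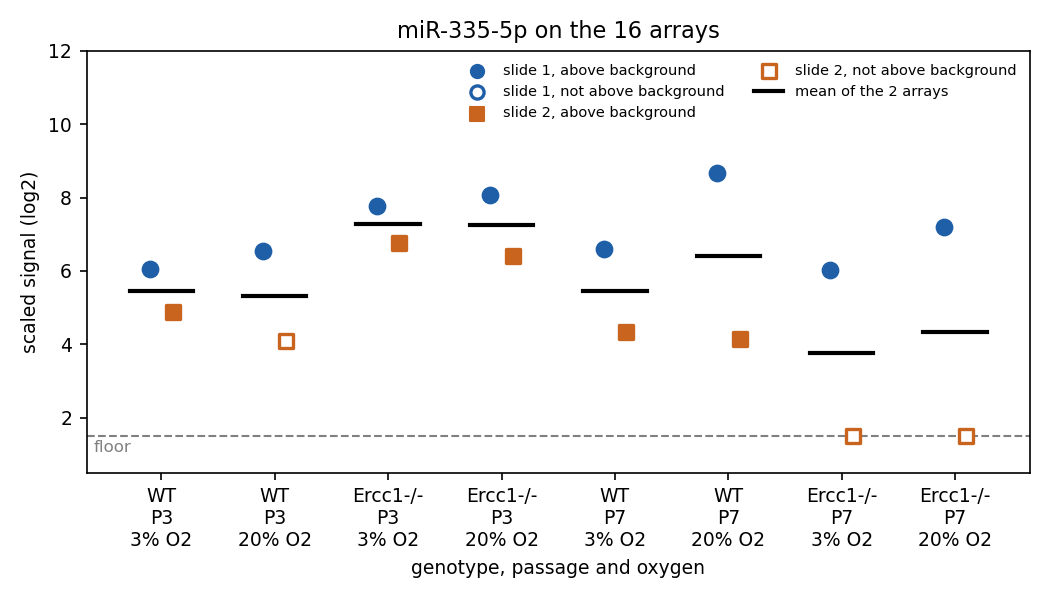
Scaled log2 signal of miR-335-5p (vertical axis) on each array, by genotype, passage and oxygen (horizontal axis); circles are slide 1, squares are slide 2, open symbols are arrays where it was not above background, bars are the mean of the 2 arrays and the dashed line is the floor of 1.50. Slide 1 is above slide 2 in all 8 groups, and both P7 Ercc1-/- arrays of slide 2 lie on the floor.

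Ordered by group mean, miR-335-5p was 7.27 ± 0.70 (SD, n = 2) in Ercc1-/- P3 MEFs in 3% O2 and 7.24 ± 1.18 (SD, n = 2) in 20% O2. WT P7 MEFs in 20% O2 followed with 6.40 ± 3.20 (SD, n = 2). WT MEFs at P3 in 3% O2 had 5.47 ± 0.82 (SD, n = 2), at P7 in 3% O2 5.47 ± 1.59 (SD, n = 2) and at P3 in 20% O2 5.32 ± 1.73 (SD, n = 2). The lowest means were those of Ercc1-/- P7 MEFs, 4.35 ± 4.03 (SD, n = 2) in 20% O2 and 3.76 ± 3.20 (SD, n = 2) in 3% O2. Every step between neighbours in this order was smaller than the SD of at least 1 of the 2 groups.

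The difference of miR-335-5p between slides was larger than its averaged change for genotype, passage or oxygen. Its scaled signal was higher on slide 1 in 8 of 8 groups, by 1.00 to 5.70 with a mean of 2.91, the highest of these from an array at the floor. Groups on a slide share it and are not independent, so no p is given. Its residual SD in the fit, as moderated by limma, was 2.02, the highest of the 235 tested miRNAs, whose median was 0.87. Across the 16 arrays the scaled miR-335-5p signal also followed the overall unscaled signal of the array, with a Pearson r of 0.89, and of 0.60 over the 8 arrays of slide 1 and 0.83 over the 8 of slide 2. These arrays share slides and groups, and the part of the overall signal in the differences below was not tested. Cell culture, slide and scan share the replicate number and cannot be told apart.

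**Figure D2:**
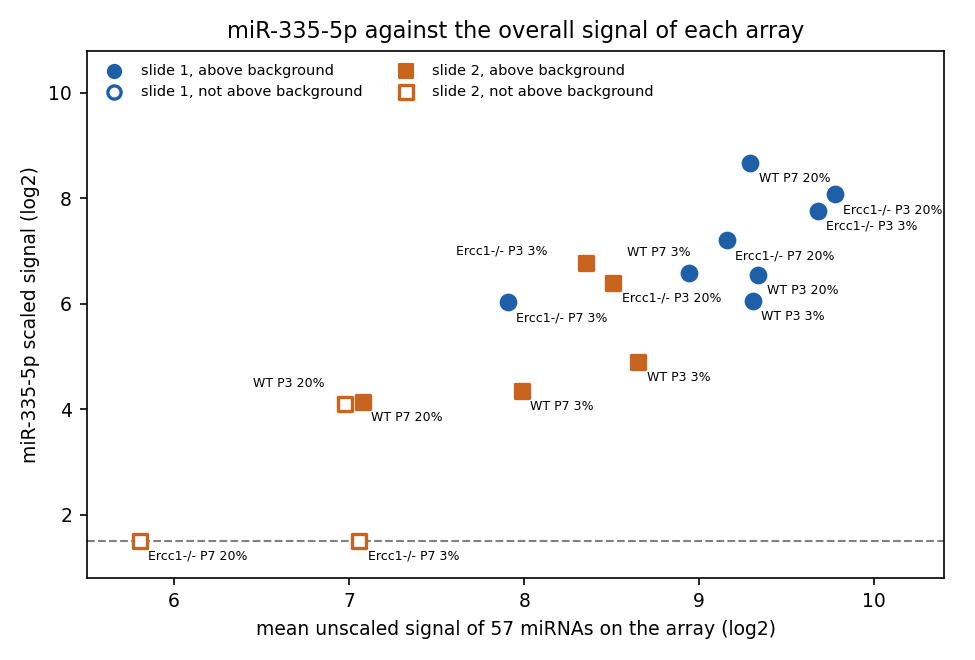
Scaled log2 signal of miR-335-5p (vertical axis) against the mean unscaled log2 signal of the 57 miRNAs above background on all arrays (horizontal axis), with 1 symbol per array; circles are slide 1, squares are slide 2, open symbols are not above background and the dashed line is the floor of 1.50. Arrays with a higher overall signal have higher miR-335-5p, with a Pearson r of 0.89 over 16 arrays.

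The first comparison asked whether loss of Ercc1 went with a different miR-335-5p level. At P3, the mean was higher in Ercc1-/- than in WT MEFs by 1.80 in 3% O2 (SE 2.02, limma adjusted p = 1) and by 1.92 in 20% O2 (SE 2.02, adjusted p = 1). The difference was 1.72 on slide 1 and 1.88 on slide 2 in 3% O2. It was 1.53 and 2.31 in 20% O2, where the arrays of the 2 genotypes overlapped. Neither passed the test, and limma called 0 of 235 miRNAs (0%) in 3% O2, with 6 at an unadjusted p under 0.05, and 2 (0.851%) in 20% O2. At P7 the sign was the other way, with Ercc1-/- MEFs at -1.71 against WT in 3% O2 (SE 2.02, adjusted p = 0.988) and at -2.05 in 20% O2 (SE 2.02, adjusted p = 0.780). On slide 1 these differences were -0.57 and -1.47, and on slide 2 -2.84 and -2.64. The slide 2 values are set by the floor, since neither Ercc1-/- array there measured miR-335-5p above background. With each such array held at its own lowest signal above background instead, a level chosen after seeing the data and called its own limit here, they were -1.38 and -0.32, and the differences over both slides were -0.97 and -0.89. Limma called 0 miRNAs (0%) at P7 in 3% O2, with 7 at an unadjusted p under 0.05, and 1 (0.426%) in 20% O2.

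Without both P7 Ercc1-/- arrays of slide 2, the P7 difference between genotypes became 0.56 in 3% O2 and 0.80 in 20% O2, where Ercc1-/- arrays of slide 1 alone are set against WT arrays of both slides. Adding the replicate as a block turned these to -0.53 and -0.29, and none of these values passed. Averaged over passage and oxygen, miR-335-5p was 5.65 in Ercc1-/- and 5.66 in WT MEFs, a difference of -0.01 (SE 1.01, 95% interval -2.22 to 2.19, limma adjusted p = 0.993), where 4 of 235 miRNAs (1.70%) were called. The interval spans changes of more than 4-fold in either direction, so the arrays do not show that the genotypes had the same level.

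The second comparison asked how miR-335-5p changed with passage. In Ercc1-/- MEFs it was lower at P7 than at P3 on both slides and at both oxygen levels. In 3% O2 the change was -3.51 (SE 2.02, 95% interval -7.92 to 0.90, limma adjusted p = 0.222), with -1.74 on slide 1 and -5.27 on slide 2. At the own limit of the P7 array, slide 2 gave -3.80 and both slides -2.77 (limma adjusted p = 0.226). In 20% O2 it was -2.89 (SE 2.02, limma adjusted p = 0.267), with -0.88 on slide 1 and -4.90 on slide 2, and the arrays overlapped. At the own limit, slide 2 gave -2.58 and both slides -1.73 (adjusted p = 0.470). The size of the decrease on slide 2 thus depends on the level given to arrays where miR-335-5p was not above background. Neither passed in this fit, which called 0 miRNAs (0%) in 3% O2, with 74 at an unadjusted p under 0.05, and 3 (1.28%) in 20% O2.

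With the replicate as a block, which allows for 1 constant difference between slides, the decrease in Ercc1-/- MEFs in 3% O2 passed the test (SE 1.09, limma adjusted p = 0.0462), where 43 of 235 miRNAs (18.3%) were called. In 20% O2 the blocked value missed it (limma adjusted p = 0.0645, 5 miRNAs or 2.13% called). The slides did not differ by a constant: in Ercc1-/- MEFs in 3% O2 the difference was 1.00 at P3 and 4.53 at P7. With genotype and replicate as a random block, neither passed (adjusted p = 0.130 in 3% and 0.168 in 20% O2). Without both P7 Ercc1-/- arrays of slide 2 and with the block, the changes were -2.33 in 3% O2 (adjusted p = 0.153) and -1.13 in 20% O2 (adjusted p = 0.612). The blocked call in 3% O2 was thus lost without these arrays, on which miR-335-5p was not above background.

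In WT MEFs no such decrease was seen. In 3% O2 the passage change of miR-335-5p was -0.00036 (SE 2.02, 95% interval -4.41 to 4.41, limma adjusted p = 1), made of 0.55 on slide 1 and -0.55 on slide 2, with 0 miRNAs (0%) called and 13 at an unadjusted p under 0.05. In 20% O2 it was 1.08 (SE 2.02, limma adjusted p = 0.729), made of 2.12 on slide 1 and 0.04 on slide 2, where the P3 array was not above background, with 3 miRNAs (1.28%) called. Averaged over genotype and oxygen, miR-335-5p had a mean of 6.32 at P3 and a change to P7 of -1.33 (SE 1.01, limma adjusted p = 0.268) in a comparison that called 129 of 235 miRNAs (54.9%). With the replicate block the adjusted p was 0.0486 and 160 miRNAs (68.1%) were called, so that miR-335-5p joined the majority there, but with the random block it was not called (adjusted p = 0.166). This average was 0.01 on slide 1 and -2.67 on slide 2, or -1.74 there at the own limits, and it was -0.05 (adjusted p = 0.969) without both P7 Ercc1-/- arrays of slide 2, or -0.59 (adjusted p = 0.287) with the block as well.

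The difference between the passage changes of the genotypes was tested directly. Averaged over oxygen, the passage change of miR-335-5p in Ercc1-/- minus that in WT MEFs was -3.74 on the log2 scale (SE 2.02, limma unadjusted p = 0.0893, adjusted p = 0.769), with -2.64 on slide 1 and -4.84 on slide 2. At the own limits the slide 2 value was -2.90 and the difference over both slides -2.77 (adjusted p = 0.670). No miRNA was called (0 of 235, 0%), and 11 had an unadjusted p under 0.05. With the replicate block the limma unadjusted p was 0.00567, which ranked miR-335-5p in place 3 of 235, but the adjusted p was 0.343. In that fit 0 miRNAs (0%) were called and 18 had an unadjusted p under 0.05. Without both P7 Ercc1-/- arrays of slide 2 the value was -1.18, or -2.27 with the block (adjusted p = 0.595).

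The third comparison asked whether oxygen changed miR-335-5p. Between 20% and 3% O2 the change was -0.15 in WT P3 MEFs, 0.94 in WT P7 MEFs, -0.03 in Ercc1-/- P3 MEFs and 0.59 in Ercc1-/- P7 MEFs (SE 2.02 each, limma adjusted p = 1 each). Limma called 0 of 235 miRNAs (0%) in each of these 4 comparisons, with 1 to 7 at an unadjusted p under 0.05. On slide 1 miR-335-5p was higher in 20% O2 in all 4 pairs, by 0.31 to 2.08, whereas on slide 2 it was between -0.79 and 0.00, the last from a pair with both arrays at the floor. The average was 0.34 (SE 1.01, 95% interval -1.87 to 2.54, limma adjusted p = 1.00), where 2 miRNAs (0.851%) were called. The passage change did not differ detectably between oxygen levels (0.85, SE 2.02, adjusted p = 0.996, 0% called, with 2 miRNAs at an unadjusted p under 0.05). Nor did the oxygen change between genotypes (-0.11, SE 2.02, limma adjusted p = 1.00, 0% called, with 0 at an unadjusted p under 0.05).

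**Figure D3:**
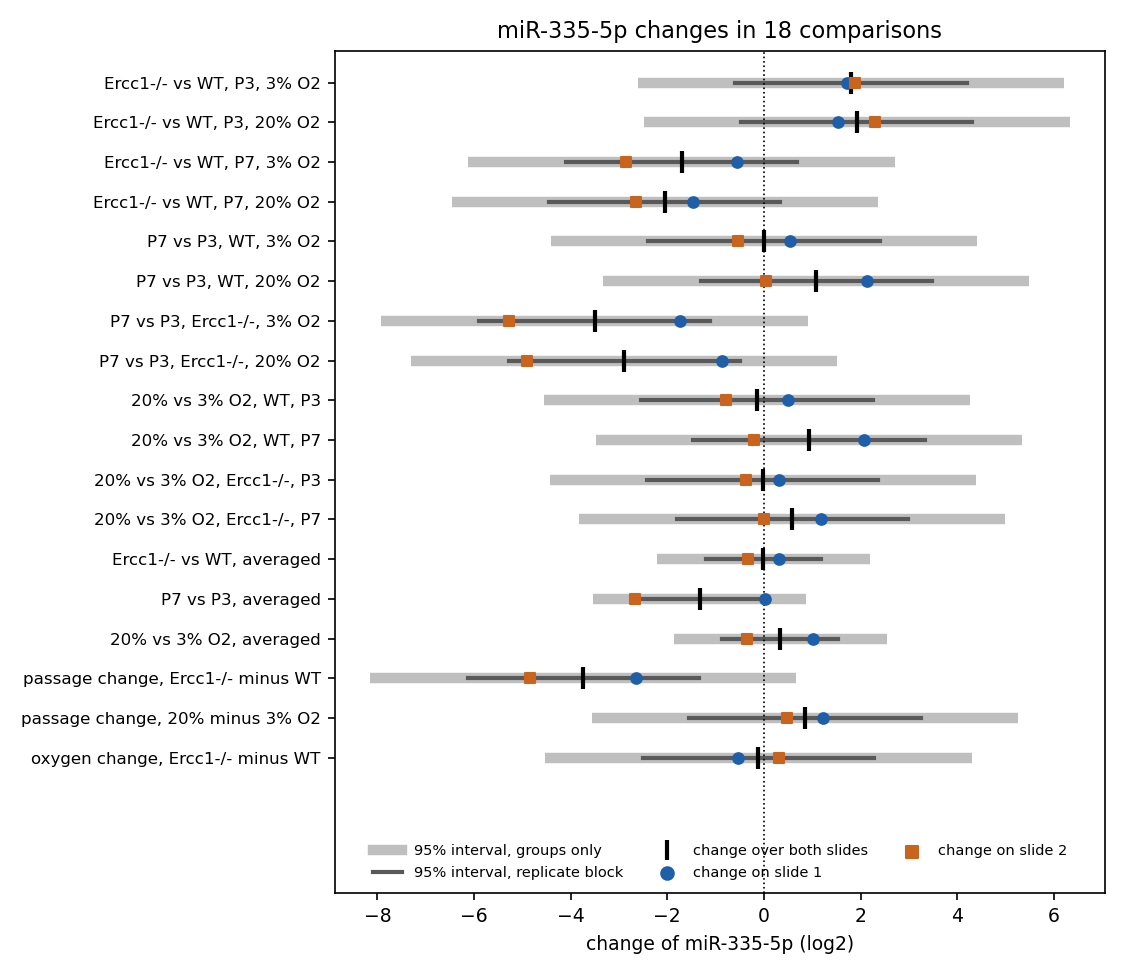
Log2 change of miR-335-5p (horizontal axis) in 18 comparisons (vertical axis); black ticks are the change over both slides, circles and squares are the change on slide 1 and slide 2, and grey bars are 95% intervals of the fit with group means only (wide) and with the replicate as a block (narrow). The wide intervals all span 0, and the narrow ones leave it out for the passage changes in Ercc1-/- MEFs, the averaged passage change and the difference between passage changes of the genotypes.

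MiR-335-5p was measured with 2 probes of 10 spots each, and no spot was saturated. One probe, A_54_P2688, was above background on 13 arrays and the other, A_54_P2687, on 8. Taken alone, the probes gave the same direction of the miR-335-5p difference between genotypes at P3, 1.79 and 1.93 in 3% O2 and 1.77 and 1.74 in 20% O2. They also gave the same direction of its passage change in Ercc1-/- MEFs, -3.20 and -2.19 in 3% O2 and -3.28 and -1.50 in 20% O2. At P7 the genotype differences were -1.42 and -0.22 in 3% O2 and -2.50 and -0.76 in 20% O2, with A_54_P2688 first in each pair. None of these passed the test in the fit without the block.

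MiR-335-3p, the other strand, was close to background. It was above background on 4 of the 16 arrays, which were Ercc1-/- P3 in 3% and 20% O2 and WT P7 in 20% O2 on slide 1 and WT P3 in 20% O2 on slide 2. It was above background on both arrays of 0 of the 8 groups, so it was not among the tested miRNAs and no change is given for it.

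In 3% O2, both WT P3 arrays and both WT P7 arrays of miR-335-3p were at the floor of 1.50. Ercc1-/- MEFs in 3% O2 had 2.35 on slide 1 and 2.33 on slide 2 at P3, and 1.66 and 2.89 at P7. In 20% O2, WT MEFs had the floor of 1.50 on slide 1 and 5.38 on slide 2 at P3, and 2.69 and 1.78 at P7. Ercc1-/- MEFs in 20% O2 had 2.37 on slide 1 and 3.13 on slide 2 at P3, and 1.93 and 3.15 at P7. All but 1 of the 16 values lay under 3.2, and the exception, 5.38, came from the WT P3 array in 20% O2 of slide 2, on which miR-335-5p was not above background. The unscaled signal of miR-335-3p was also higher on that array than on the other 15. Of the 611 mouse miRNAs, 84 had their highest unscaled signal there, so this was not particular to miR-335-3p. The part of the array in the value of 5.38 was not tested.

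**Figure D4:**
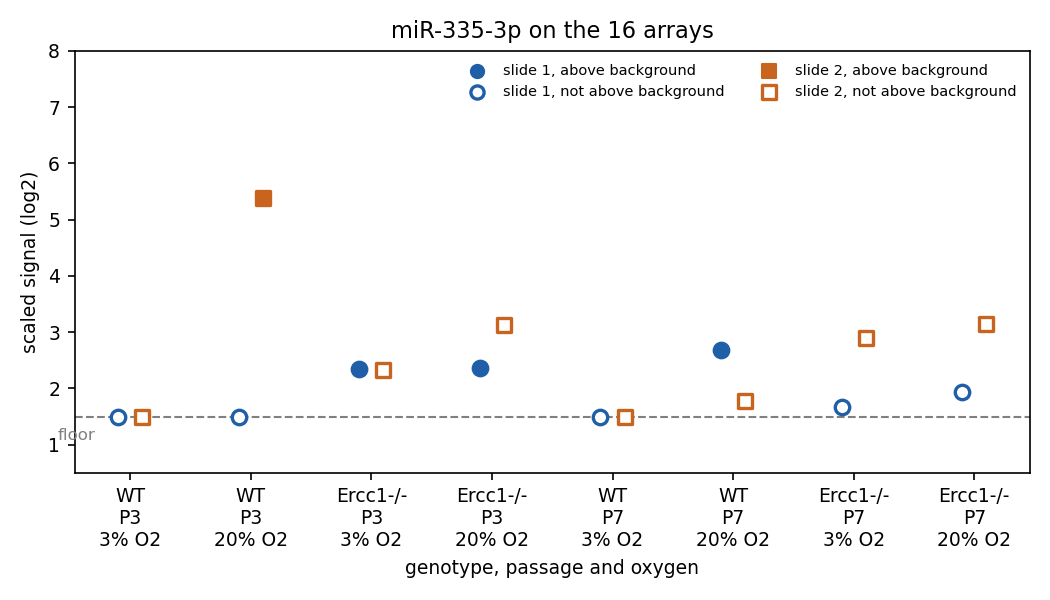
Scaled log2 signal of miR-335-3p (vertical axis) on each array, by genotype, passage and oxygen (horizontal axis); circles are slide 1, squares are slide 2, open symbols are arrays where it was not above background and the dashed line is the floor of 1.50. It was above background on 4 arrays, and the only value above 3.2 is 5.38 on the slide 2 array of WT P3 MEFs in 20% O2.

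The 4 probes of miR-335-3p, with 5 spots each, were above background on 0, 2, 3 and 4 arrays. Their unscaled signals were 18.7 at most. Probes differ in how well they bind, so the relative amounts of the strands are not given. When all 611 mouse miRNAs were tested without a filter, miR-335-3p had limma adjusted p-values of 0.840 or more in all 18 comparisons.

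Whether the strands changed unequally with passage was tested on the log2 difference of miR-335-5p and miR-335-3p within each array. From P3 to P7 this difference moved by -0.96 ± 3.09 (SD, n = 8 pairs of the same genotype, oxygen and slide), with 3 of 8 pairs positive (exact two-sided sign-flip permutation test, p = 0.344). The smallest p that 8 pairs allow is 0.00781, and pairs from the same cultures are not independent. Values of miR-335-3p near background limit this comparison.

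The miRNAs whose pattern was most like that of miR-335-5p were miR-411, miR-16, miR-376c, miR-434-5p and miR-101b, with a Pearson r over the 16 arrays of 0.90, 0.90, 0.88, 0.88 and 0.87. They were the highest of 215 miRNAs above background on at least 8 arrays, whose median r with miR-335-5p was 0.50. With the mean of each slide subtracted, miR-376c (0.84), miR-148a (0.82), miR-411 (0.82), miR-434-5p (0.82) and let-7b (0.81) were the highest and the median was 0.46. MiR-411, miR-376c and miR-434-5p stayed in both sets. All these values come from the same arrays and share their overall signal. Of these miRNAs, miR-376c (average -1.91, SE 0.66, limma adjusted p = 0.0286) and miR-148a (-2.63, SE 0.84, adjusted p = 0.0207) fell with passage, in the comparison where 54.9% of all tested miRNAs were called. MiR-376c was not above background in 1 P7 group, so the size of its change depends on the floor. The others were not called. MiR-411 had -1.55 (SE 0.74, limma adjusted p = 0.0889) and miR-16 -1.89 (SE 0.77, adjusted p = 0.0529). MiR-434-5p had -1.02 (SE 0.56, adjusted p = 0.131), miR-101b -1.02 (SE 0.57, adjusted p = 0.142) and let-7b -0.62 (SE 0.26, adjusted p = 0.0597). MiR-335-3p was above background on too few arrays for a ranking of its likeness to be read, and none is given. The strands themselves had an r of -0.27 over 16 arrays, and of 0.0068 with slide means subtracted.

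MiRNA genes near Mir335 on chromosome 6 were also followed. Within 5000000 bases the RefSeq table lists 7 others, Mir592, Mir129-1, Mir182, Mir96, Mir183, Mir29a and Mir29b-1, and 4 of their mature miRNAs on the array were tested. MiR-129-5p was above background on 5 arrays, all of them Ercc1-/-, of which 4 were the P7 arrays. It was not above background in any of the 4 WT groups, so that no change of it is given. MiR-129-3p, miR-29a and miR-29b did not pass in any averaged comparison. The miR-29 miRNAs, repressors of collagen genes, changed with passage by 0.31 (miR-29a) and -0.30 (miR-29b). MiR-129 and miR-29b can also come from another locus, so that their values are not those of chromosome 6 alone.

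Like Mest, other imprinted loci carry miRNAs. Of those of the H19, Igf2 and Gnas loci, 4 were tested, and with passage 1 rose, miR-483 from Igf2 (2.84, SE 0.66, limma adjusted p = 0.00793), and 1 fell, miR-675-3p from H19 (-1.56, SE 0.27, adjusted p = 0.00379), against 54.9% of all tested miRNAs. MiR-675-3p was not above background in 3 of the 4 P7 groups, so the size of its change depends on the floor. Of 41 tested miRNAs of the Dlk1-Dio3 cluster, 5 rose and 14 fell with passage, with a median change of -0.39, equal to the median of all 235 tested miRNAs, of which 53 rose and 76 fell. The largest changes were those of miR-494 (3.97, SE 0.90, limma adjusted p = 0.00701) and miR-299* (-2.95, SE 0.82, adjusted p = 0.0124). None of the 41 was called between genotypes or oxygen levels on average, where 1.70% and 0.851% of all were. Of the 4 from the H19, Igf2 and Gnas loci, 1 was called between genotypes, miR-675-3p. It was lower in Ercc1-/- MEFs (-1.34, SE 0.27, limma adjusted p = 0.0227) and was not above background in 2 Ercc1-/- groups and 1 WT group.

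Some hairpins give a strand known, like miR-335-5p, to repress Runx2, and 7 of their miRNAs were tested. These 7 include the star strands miR-135a* and miR-34c*, so they are not known repressors alone. With passage 1 rose and 4 fell, with a median of -2.25, where 129 of all 235 (54.9%) were called. They included miR-218 (-3.06, SE 0.45, limma adjusted p = 0.00164), which was not above background in 1 of the 4 P7 groups, and the one that rose was the star strand miR-135a* (3.46, SE 0.90, adjusted p = 0.0109), whose seed differs from that of the strand known to target Runx2. Of 12 tested miRNAs from hairpins linked to senescence, which include star strands, 1 rose, miR-22, and 4 fell, against the same 54.9%, with a median of -0.43. Among those that fell were miR-195 (-2.52, SE 0.57, limma adjusted p = 0.00701) and the star strand miR-31* (-2.39, SE 0.69, adjusted p = 0.0145). The other strand, miR-31, did not fall (0.61, SE 0.25, limma adjusted p = 0.0540). None of the Runx2 or senescence miRNAs was called between genotypes or oxygen levels on average, where 1.70% and 0.851% of all were. The passage change of miR-335-5p, -1.33, lay between the medians of these lists but with an SE of 1.01.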

How the data were processed

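Total RNA from 16 samples was hybridized to 1-colour Agilent mouse miRNA arrays. The intensity values deposited by the authors are background-subtracted spot signals from Feature Extraction (10.7.1.1 per the file headers), not scaled between arrays. The deposited series table holds 1 intensity per miRNA and was used as an alternative. They hold no genome coordinates, and those printed come from RefSeq.

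Control and outlier spots were left out, and spots were averaged per probe and probes per miRNA. A probe was above background when a share of at least 0.5 of its spots was marked so, and 1 such probe sufficed for a miRNA. The 57 miRNAs detected above background on every array served to scale the arrays to an equal mean in log2, and lower scaled signals were raised to a floor of 2.82. The floor is the median over arrays of the lowest signal above background, which ranged from 1.02 to 18.0. Tests covered the 235 miRNAs that passed background on both arrays of some group, with limma 3.58.1 in R 4.3.3 (8 residual and 3.58 prior degrees of freedom), with Benjamini-Hochberg adjustment within each of 18 comparisons and calls at an adjusted p under 0.05. The script was tested on simulated data. The study's methods describe independent cell lines, but not which line a replicate number marks, and p-values measure the spread between these arrays, whose number limits the precision. Pearson r between replicates was 0.488 to 0.975.

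Slide and replicate number coincide, and slide differences of pairs of groups were correlated across miRNAs within a passage (median r of 0.61 at P3 and 0.81 at P7). A fit with the replicate as a block was therefore also made. Between passages the median r was 0.03, so the slide difference that the block takes as shared was not seen to be shared by P3 and P7. The named miRNAs are both members, the 5 most like miR-335-5p (none for miR-335-3p, which was near background), and up to 2 called members of each list with the largest passage change. MiR-22, miR-31, the genotype value of miR-675-3p and the values of neighbours were named after their values were seen. Members and lists were chosen with earlier results of these data known. Alternatives are in the closing section.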

Additional observations from a re-analysis of the deposited data

Results flagged for a closer look

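MiR-335-5p was higher in Ercc1-/- than in WT MEFs on both slides at P3 and lower on both slides at P7. The direction of the genotype difference was thus opposite between passages in every pair of arrays, with the P7 Ercc1-/- arrays of slide 2 at the floor. The P7 difference minus the P3 difference was -3.51 in 3% O2 and -3.97 in 20% O2. With arrays not above background held at their own lowest signal above background, it was -2.77 at both oxygen levels. In 20% O2 the same value, -3.97, separates the passage change of Ercc1-/- MEFs, lower on both slides, from that of WT MEFs, which was 2.12 on slide 1 and 0.04 on slide 2. The slide 2 value rests on a P3 array where miR-335-5p was not above background, and at that array's own limit it was -0.029, so a higher level on both slides was not shown. These differences were not tested at single oxygen levels. Averaged over oxygen the difference was tested and had a limma adjusted p of 0.769, or 0.343 with the replicate block. The mean unscaled log2 signal of the P7 Ercc1-/- arrays of slide 2 was 5.80 in 20% O2 and 7.06 in 3% O2. On that slide the WT arrays in 20% O2 had 6.98 at P3 and 7.08 at P7, and the rest had 7.99 to 8.65. The part of the overall signal was not tested.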

How the results depend on the processing

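No alternative gave a call for miR-335-5p other than in the passage comparisons. With the replicate block its change in Ercc1-/- MEFs in 3% O2 (-3.51) and its averaged passage change (-1.33) became called, and the block changed no other call of it. With a random block of genotype and replicate neither was called (limma adjusted p = 0.130 and 0.166). The block on unscaled signals, chosen after seeing the data, called -4.25 in 3% O2, -3.14 in 20% O2 and -1.70 for the average. Leaving out the slide 1 array of Ercc1-/- P7 MEFs in 20% O2 gave a call of -5.74 there, resting on 1 array at the floor.

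Directions turned for values near 0 and, with arrays left out, for larger ones. The genotype average (-0.01) was 0.46 with arrays not above background at their own limits, chosen after seeing the data, 0.37 without scaling (also with the block), 0.16 with the array mean, 0.090 with the 75th percentile of all miRNAs, 0.25 with normexp, 0.49 with a 4-fold floor and 0.67 with probe A_54_P2687 alone. Without both P7 Ercc1-/- arrays of slide 2, chosen after seeing the data, it was 1.27, or 0.72 with the block, and the P7 differences were 0.56 and 0.80. The WT passage change in 3% O2 was 0.038 with quantile scaling, 0.27 and 0.18 with 75th percentiles, 0.021 with the series table and 0.0055 with probe A_54_P2688 alone. That probe gave oxygen changes of 0.0084 in WT P3 and -0.094 in Ercc1-/- P7 MEFs. The latter was -0.037 with the software's detection call and -1.01 with the floor multiplied by 0.1, which turned the oxygen average to -0.062. In Ercc1-/- P3 MEFs it was 0.10 without scaling, also with the block, and 0.22 with normexp. The difference between the oxygen changes of the genotypes was 0.083 at the own limits, 0.81 without scaling, also with the block, 0.060 with quantile scaling, 0.43 with the array mean, 0.48 with normexp and 0.18 without both arrays, also with the block. The floor also set sizes: multiplied by 4 and by 0.1, it gave a passage change in Ercc1-/- MEFs in 20% O2 of -1.89 and -4.55, and P7 genotype differences of -0.71 and -1.77 in 3% O2 and -1.05 and -3.71 in 20% O2. With the 4-fold floor the passage change in 3% O2 was -2.51. The cause was not tested.

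Leaving out 1 array at a time, the genotype difference ranged from 1.22 to 2.38 (P3, 3% O2), 0.70 to 3.14 (P3, 20%), -3.97 to 0.56 (P7, 3%) and -4.91 to 0.80 (P7, 20%), with an average from -0.72 to 0.70. The passage change ranged from -1.13 to 1.12 (WT, 3%), -1.18 to 3.35 (WT, 20%), -5.77 to -1.24 (Ercc1-/-, 3%) and -5.74 to -0.038 (Ercc1-/-, 20%), with an average from -2.04 to -0.62. The oxygen change ranged from -1.37 to 1.08 (WT P3), -1.33 to 3.20 (WT P7), -0.87 to 0.81 (Ercc1-/- P3) and -2.26 to 3.44 (Ercc1-/- P7), with an average from -0.38 to 1.05. The differences between changes ranged from -5.17 to -2.31 (passage, by genotype), -0.58 to 2.28 (passage, by oxygen) and -1.54 to 1.31 (oxygen, by genotype).

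Counts of called miRNAs moved more. For the averaged passage comparison, 129 became 44 without scaling, 0 with normexp, 72 with total signals, 55 without a filter and 35 among the 57 miRNAs above background on all arrays, and 99 to 193 without 1 array. For the averaged genotype comparison, 4 became 0 without scaling, with normexp or with total signals, 8 without a filter, 7 with the block, 1 at the own limits, 9 without both P7 Ercc1-/- arrays of slide 2 (also with the block), 2 among the 57, and 3 to 19 without 1 array. For averaged oxygen, 2 became 0 with normexp, 4 at the own limits and 1 without scaling (also with the block), with the array mean, total signals, the software's call, the floor multiplied by 0.1, no filter or the 57, and 1 to 6 without 1 array. In single groups, the passage counts in Ercc1-/- MEFs reached 88 in 3% O2 and 68 in 20% O2 with the block on unscaled signals, and 180 in 20% O2 without 1 array. The other single-group counts, 0 to 3, stayed at 13 or fewer under the alternatives and reached 74 (genotype, P7, 20%) and 26 (oxygen, Ercc1-/- P7) without 1 array. Differences between changes reached 3, and 15 without 1 array. The methods' unpaired test passed 0 to 21 miRNAs per comparison, 0 after Benjamini-Hochberg adjustment, and never miR-335-5p.

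Without scaling the median passage change of all tested miRNAs moved by -0.75, and by -0.37 with the array mean and 0.29 with the 75th percentile of the 57; relative to the median, miR-335-5p was at -0.56, -0.67 and -0.94, against -0.94 as reported. The software called miR-335-3p detected on 7 arrays, against 4 above background. The strand difference ranged from -1.62 to -0.26 without 1 pair, -0.51 without a floor and -0.17 with total signals. Among the 57, miR-335-5p is not a member, so that filter gave it no value. Normexp used median spot signals.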
